A study of Mus musculus with 18 samples.

Results

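Pou3f1, Otx2, Sall2, Sox4, Sox11, Sox3, Zic2, Msi1, Gbx2 and Nes are 10 genes of the primed epiblast and of early neural progenitors, and their RNA was measured on Affymetrix mouse expression arrays of embryonic stem cells. All probe sets annotated to these symbols were taken, 28 of the 45037 probe sets other than controls, and the 10 genes are among 18193 genes with a probe set of their own. The cells were CGR8, a mouse embryonic stem cell line, grown in serum and LIF, the cytokine that maintains self-renewal. In 4 groups the cells were transfected by lipofection with Foxd3, with CA-NFATc3, with Foxd3 and CA-NFATc3, or with a vector control. In the other two groups Foxd3 conditional knockout cells, Foxd3 fl/fl:Cre-ERT, received tamoxifen for 2 days or DMSO (0 days), so that the floxed alleles and the Cre are carried by both. By the labels the knockout cells have the CGR8 source and the protocols of the transfected cells. Each group had 3 arrays that the labels call biological replicates, 18 in all. Nothing says whether these came from separate cultures, so p-values measure the spread between these samples, and their number limits the precision. The promoters on the plasmids, the clone of the knockout line, the time after transfection and any use of feeder cells are unstated in the labels.

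Naive embryonic stem cells resemble the epiblast before implantation, and on the way to lineage choice they pass through a formative and then a primed state that resembles the epiblast after implantation. Pou3f1 is a POU-domain transcription factor and Otx2 a paired-type homeodomain factor that rise in this transition and are used in anterior neural fate. Sall2 is a zinc finger factor of the spalt family expressed in neural tissue. Sox4 and Sox11 are close relatives of the SoxC group, HMG-box factors active in neural progenitors and newborn neurons, and Sox3 is a SoxB1 factor related to Sox2. Zic2 is a zinc finger factor of the epiblast and the neural plate. Msi1 encodes the RNA-binding protein Musashi and Nes the intermediate filament nestin, both markers of neural progenitors. Gbx2 is a homeodomain factor that opposes Otx2 at the midbrain and hindbrain boundary, and in mouse embryonic stem cells it also acts downstream of LIF. Foxd3 is a forkhead repressor of pluripotent cells and neural crest. NFATc3 in its native form is a calcineurin-dependent transcription factor, and CA-NFATc3 names an active form of it.

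The MAS5 signal of a probe set, on a linear scale, was used as deposited. Median signals were 55.2 to 67.1 in the transfected and 73.0 to 80.7 in the knockout arrays, and replicates of a group correlated at 0.981 to 0.988 over all probe sets on the log2(signal + 32) scale. All 8 of 8 embryonic stem cell markers, Pou5f1 and Nanog among them, reached the median of all deposited values, 65.8, in every group. The Foxd3 probe set went against its label in the transfected cells. It read 232, 244 and 236 in the arrays labelled Foxd3 and 277, 210.2 and 214 in those labelled Foxd3 and CA-NFATc3, against 507, 419 and 404 in vector arrays. The difference of Foxd3-labelled from vector arrays was -0.81 ± 0.13 on the log2 scale (SE; limma adjusted p = 0.00239). In the knockout cells it was at 65.1, 9.55 and 19.7 in tamoxifen arrays, against 249, 204 and 205 in DMSO arrays (limma adjusted p = 0.000174). Nfatc3 averaged 1732 ± 58.5 in CA-NFATc3 arrays and 1581 ± 31.4 in vector arrays (SD, n = 3 each), a log2 difference of 0.13 that was not called (limma adjusted p = 0.452). Whether any of these probe sets lies within the plasmid's insert or the deleted part is not stated by the labels, so none of them checks the transfection. The transfected groups are therefore called Foxd3-labelled, CA-NFATc3, combined-label and vector arrays.

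Of the 10 genes, 5 rose in Foxd3-labelled arrays relative to vector arrays and 0 fell (7 higher and 0 lower at an unadjusted limma p under 0.05), where 2.26% of all 11609 genes tested were called, 1.51% higher and 0.749% lower. The 5 were Sall2, Pou3f1, Sox11, Otx2 and Sox4. The same 5 genes rose in combined-label arrays, where 3.92% of all genes were called and 2.94% higher. In CA-NFATc3 arrays Pou3f1 alone of the 10 passed the test, and it rose, where 4.99% of all genes were called and 4.04% higher. After tamoxifen 0 of the 10 rose and 3 fell, Sox11, Msi1 and Sox4 (0 higher and 4 lower at an unadjusted p under 0.05), where 32.7% of 12093 genes tested were called, 16.7% higher and 16% lower. Of the 28 probe sets, 19 were tested in the transfected and 21 in the knockout arrays, and 6 stayed under 65.8 in all 18: 2 of Sox4, 2 of Msi1, 1 of Sox3 and 1 of Nes. The call required a Benjamini-Hochberg adjusted p under 0.05 in a limma fit over all probe sets, and each gene was read by its brightest probe set. The 10 genes were chosen with earlier results of these data known, so their counts beside all genes are descriptive. In these bulk samples fewer cells of a type and less RNA per cell cannot be told apart.

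**Figure D1:**
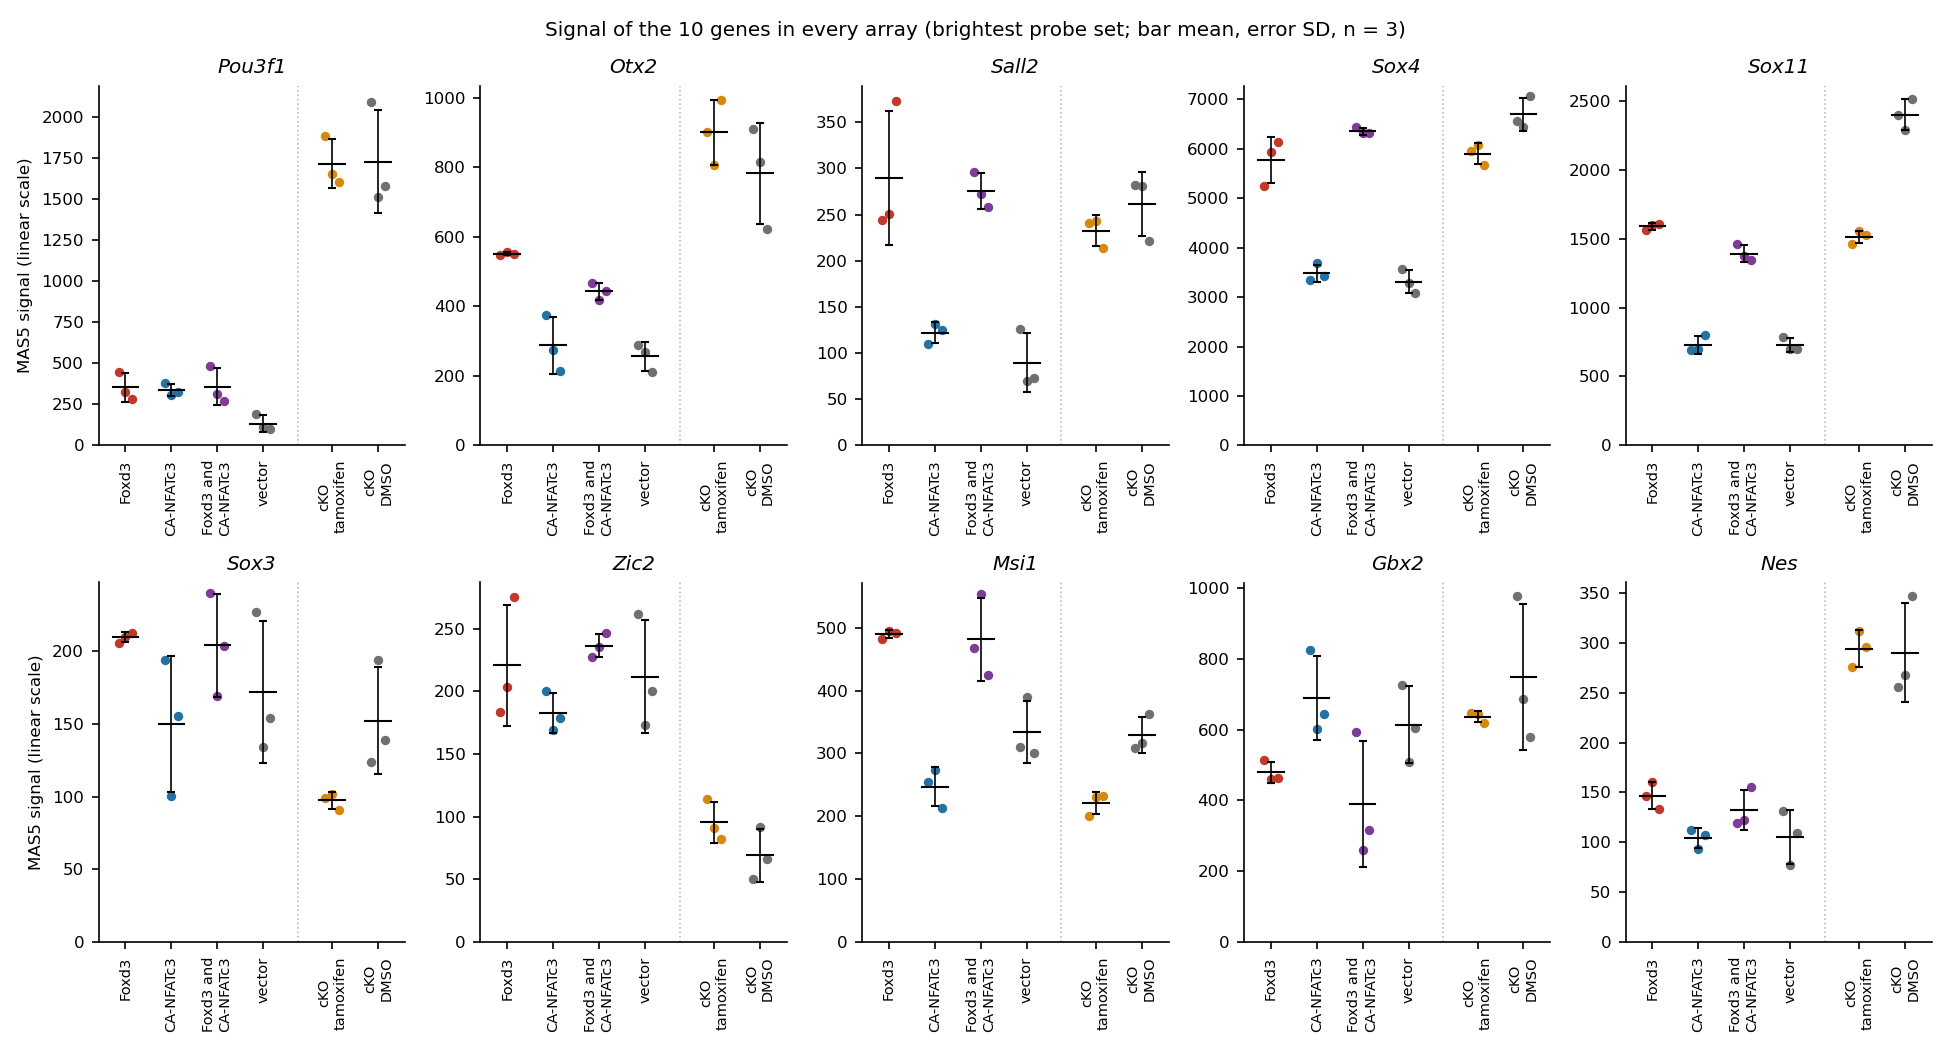
MAS5 signal (linear axis from 0, arbitrary units) of the brightest probe set of each of the 10 genes in all 18 arrays, by group; points are arrays, the long bar is the mean and the error bar the SD (n = 3). Sox11 lay at 1559.8 to 1608 in the 3 Foxd3-labelled arrays and at 697 to 789 in the 3 vector arrays, and at 1464 to 1552 in tamoxifen arrays and 2288 to 2516 in DMSO arrays.

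Among the transcription factors of the primed epiblast, Pou3f1 had signals of 449, 328 and 282 in Foxd3-labelled arrays, 378, 305 and 327 in CA-NFATc3 arrays and 484, 313 and 273 in combined-label arrays, against 189, 113 and 96.8 in vector arrays. All 9 arrays with a factor plasmid lay above the 3 vector arrays, and the 3 plasmid groups overlapped one another. Group means were 353 ± 86.3, 337 ± 37.4 and 357 ± 112 in that order, against 133 ± 49.4 in vector arrays (SD, n = 3 each). The log2 differences from vector were 1.24 ± 0.22 for Foxd3-labelled arrays (SE; limma adjusted p = 0.00661), 1.19 ± 0.22 for CA-NFATc3 arrays (limma adjusted p = 0.00424) and 1.24 ± 0.22 for combined-label arrays (limma adjusted p = 0.00471). Combined-label minus Foxd3-labelled arrays gave -0.00 ± 0.22 and combined-label minus CA-NFATc3 arrays 0.04 ± 0.22, neither of them called, and each SE leaves room for a moderate difference. The test of additivity, the difference of combined-label and CA-NFATc3 arrays minus the difference of Foxd3-labelled and vector arrays, gave -1.19 ± 0.31 for Pou3f1 on the log2 scale. It had an unadjusted p of 0.00154 in the limma fit and was not called after adjustment (adjusted p = 0.16). A further Pou3f1 probe set stayed under 65.8 in every transfected array, at 5.95 to 45.8.

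Otx2 had signals of 546, 556 and 551 in Foxd3-labelled arrays, 376, 275 and 214 in CA-NFATc3 arrays and 468, 419 and 444 in combined-label arrays, against 289.7, 268 and 209.6 in vector arrays. The Foxd3-labelled arrays lay above those of the other three groups, the combined-label arrays came next, and CA-NFATc3 and vector arrays overlapped. The log2 difference from vector was 1.03 ± 0.16 in Foxd3-labelled arrays (SE; limma adjusted p = 0.00196), 0.73 ± 0.16 in combined-label arrays (limma adjusted p = 0.0167) and 0.13 ± 0.16 in CA-NFATc3 arrays (limma adjusted p = 0.818). The call in combined-label arrays was lost without vector replicate 3 (limma adjusted p = 0.0952), without combined-label replicate 1 (0.0624) or without combined-label replicate 3 (0.0654). Combined-label and Foxd3-labelled arrays did not overlap, yet their difference of -0.30 ± 0.16 was not called (limma adjusted p = 0.882).

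Sall2 showed the largest log2 difference of the 10 genes in Foxd3-labelled arrays. Its signals were 245, 250.4 and 374 in Foxd3-labelled arrays, 109, 132 and 125 in CA-NFATc3 arrays and 297, 273 and 258 in combined-label arrays, against 126, 69.4 and 72.6 in vector arrays. The lowest array with Foxd3 in its label stood above the highest of the 6 others, which overlapped between CA-NFATc3 and vector. The log2 difference from vector was 1.41 ± 0.19 in Foxd3-labelled arrays (SE; limma adjusted p = 0.000603), 1.37 ± 0.19 in combined-label arrays (limma adjusted p = 0.000527) and 0.37 ± 0.19 in CA-NFATc3 arrays (limma adjusted p = 0.428).

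Both genes of the SoxC pair rose with the Foxd3 label, alone or combined, and neither passed the test with CA-NFATc3 alone. Sox11 had signals of 1559.8, 1598 and 1608 in Foxd3-labelled arrays, 690.2, 696 and 802 in CA-NFATc3 arrays and 1460.2, 1371 and 1344 in combined-label arrays, against 789, 699.8 and 697 in vector arrays. Its mean was 1589 ± 25.3 in Foxd3-labelled arrays and 728 ± 52.6 in vector arrays (SD, n = 3 each), a log2 difference of 1.09 ± 0.09 (SE; limma adjusted p = 4.04e-06). In CA-NFATc3 arrays the difference from vector was 0.00 ± 0.09 (limma adjusted p = 0.998), and in combined-label arrays it was 0.91 ± 0.09 (limma adjusted p = 2.22e-05). The combined-label arrays lay below the Foxd3-labelled ones without overlap, by 0.19 on the log2 scale, which did not pass adjustment (unadjusted p = 0.0449 and adjusted p = 0.819, limma). Other probe sets of Sox11 did not show this separation, at log2 differences of -0.11 to 0.05, none of them called.

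Sox4 had signals of 5254, 5933 and 6131 in Foxd3-labelled arrays, 3347, 3680.0 and 3419.9 in CA-NFATc3 arrays and 6442, 6323 and 6311 in combined-label arrays, against 3559.9, 3291 and 3092 in vector arrays. The 6 arrays with Foxd3 in the label did not overlap the other 6. The log2 difference from vector was 0.79 ± 0.07 in Foxd3-labelled arrays (SE; limma adjusted p = 1.94e-05), 0.94 ± 0.07 in combined-label arrays (limma adjusted p = 4.82e-06) and 0.07 ± 0.07 in CA-NFATc3 arrays (limma adjusted p = 0.78).

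Sox11 has 6 probe sets and Sox4 has 8, which share their gene and are not replicates of a condition. All 6 of Sox11 were tested and 5 of them were called higher in Foxd3-labelled than in vector arrays, at log2 differences of 0.79 to 1.10, where 1.17% of all probe sets tested were called higher. The sixth, 1431225_at, is dim: it read 111, 79 and 80.4 in Foxd3-labelled arrays, against 65.7, 56.4 and 15.3 in vector arrays, and it was not called (limma adjusted p = 0.223). Of the 5 called, 1429372_at (0.79) was near the threshold at a limma adjusted p of 0.042, and its call was lost in 5 of the 6 fits that left out 1 array, all but the one without vector replicate 1, at adjusted p-values up to 0.162. For Sox4, 4 probe sets were tested and 2 were called, 1433575_at and 1419156_at. The second of these had a log2 difference of 0.68 ± 0.16 (limma adjusted p = 0.039), and its call was lost without any 1 of the 6 arrays compared, at adjusted p-values up to 0.173. A Sox4 probe set of middle signal, 1419155_a_at, read 355, 294 and 344 in Foxd3-labelled arrays, against 228, 269.9 and 171 in vector arrays, without overlap and without a call (limma adjusted p = 0.0884). The remaining 4 Sox4 probe sets were not tested in the transfected cells, and 2 of those stayed under 65.8 in every array.

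**Figure D2:**
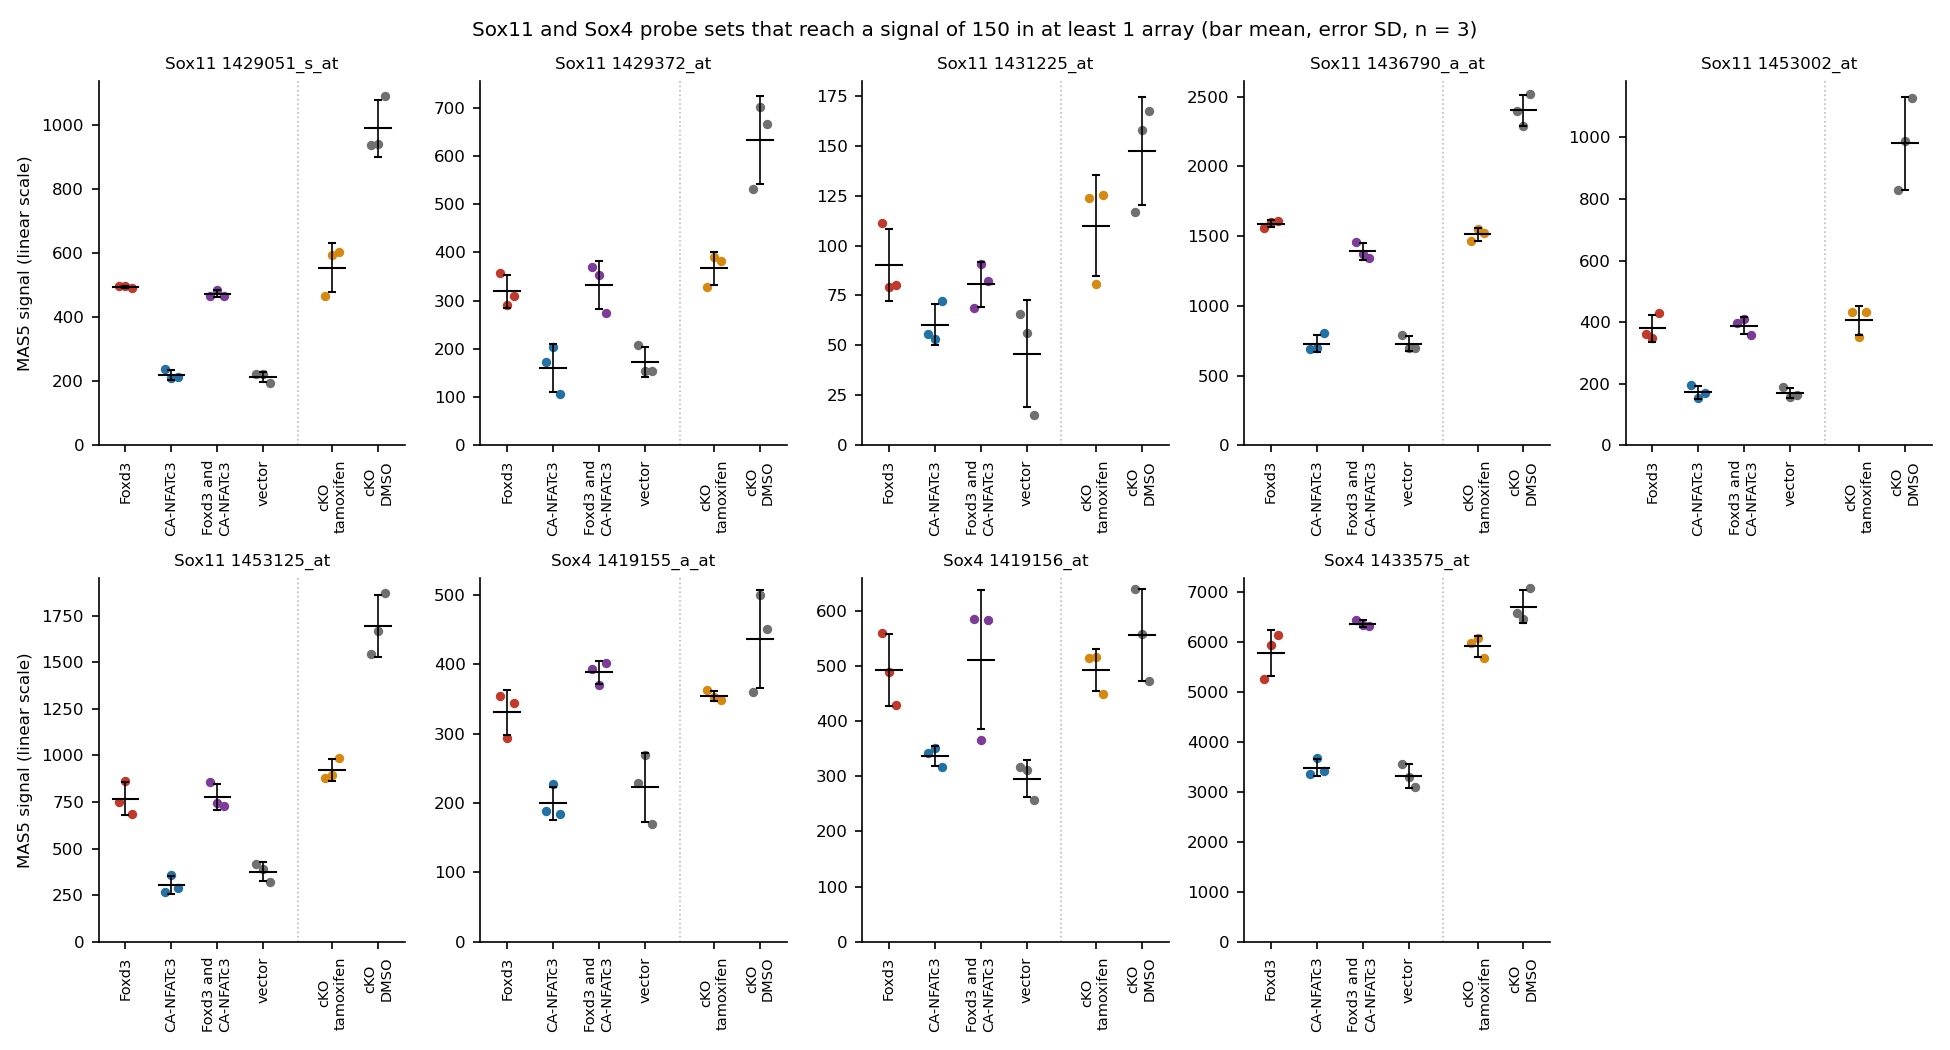
MAS5 signal (linear axis from 0, arbitrary units) of the 6 Sox11 and 3 Sox4 probe sets that reach a signal of 150 in at least 1 array, by group; points are arrays, the long bar is the mean and the error bar the SD (n = 3). In all 9 panels the mean of the Foxd3-labelled arrays lies above that of the vector arrays and the mean of the tamoxifen arrays below that of the DMSO arrays; 7 of the 9 were called in the first comparison and 6 in the second.

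The promoters of Sox11, Sox4 and Sall2 are shown as examples of genes that rose with the Foxd3 label and did not pass the test with CA-NFATc3. Otx2 had the same calls, and its windows at 4 annotated starts are described and not printed. They are RefSeq sequences of GRCm38.p6, from 250 bases before to 50 bases after the annotated start, 5′ to 3′ on the minus strand of Sox11 (chr12:27342669-27342968), Sox4 (chr13:28953650-28953949) and Sall2, at both of its annotated starts (chr14:52316274-52316573 and chr14:52328621-52328920). Capitals mark the CCAAT box read on either strand, CCAAT or ATTGG.
Sox11: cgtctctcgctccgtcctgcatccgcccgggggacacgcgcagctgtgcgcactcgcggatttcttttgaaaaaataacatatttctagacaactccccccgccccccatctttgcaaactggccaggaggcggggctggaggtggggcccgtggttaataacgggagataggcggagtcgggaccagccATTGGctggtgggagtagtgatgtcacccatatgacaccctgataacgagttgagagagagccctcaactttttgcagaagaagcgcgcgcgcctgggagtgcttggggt
Sox4: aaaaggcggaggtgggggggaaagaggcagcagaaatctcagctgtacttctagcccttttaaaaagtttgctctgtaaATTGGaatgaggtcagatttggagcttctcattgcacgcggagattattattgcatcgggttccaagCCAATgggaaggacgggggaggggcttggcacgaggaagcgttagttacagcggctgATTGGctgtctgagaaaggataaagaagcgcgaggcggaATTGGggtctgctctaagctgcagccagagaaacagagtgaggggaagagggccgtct
Sall2, first window: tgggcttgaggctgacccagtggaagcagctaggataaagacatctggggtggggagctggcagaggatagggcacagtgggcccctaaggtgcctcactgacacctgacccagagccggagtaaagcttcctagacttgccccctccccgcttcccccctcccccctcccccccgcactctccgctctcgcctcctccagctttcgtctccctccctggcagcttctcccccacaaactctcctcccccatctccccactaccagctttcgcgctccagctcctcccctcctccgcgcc
Sall2, second window: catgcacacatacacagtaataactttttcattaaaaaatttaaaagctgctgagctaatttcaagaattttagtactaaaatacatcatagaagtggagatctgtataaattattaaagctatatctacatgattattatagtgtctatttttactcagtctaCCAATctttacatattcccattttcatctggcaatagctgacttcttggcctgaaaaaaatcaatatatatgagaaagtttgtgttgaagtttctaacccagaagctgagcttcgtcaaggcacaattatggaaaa
The Sox4 window holds 4 such pentamers, the Sox11 window 1, the first Sall2 window 0 and the second 1. GC content was 58.7% for Sox11, 52% for Sox4 and 65% and 30.3% for the Sall2 windows, against a median of 52.7% over 32851 promoters. In that order the windows held 21, 12, 10 and 1 CG dinucleotides, against a median of 7. The table held 10 promoters of 6 of the genes, Sox11, Sox4, Sall2, Otx2, Gbx2 and Nes. A CCAAT box was in 4 of these 10 and in 37.4% of all promoters. GGAAAA, the core bound by NFAT factors, read on both strands (TTTTCC), was in 5 of 10 and in 23.4% of all promoters. The 5 were 3 of the 4 Otx2 windows, the second Sall2 window and the Nes window. The Otx2 windows chr14:48667595-48667894 and chr14:48667459-48667758 overlap and share their TTTTCC sites, so the same sites were counted in both. TGTTTAC, a forkhead core (GTAAACA on the other strand), was in 0 of 10 and in 3.65% of all promoters. The octamer of POU factors, ATTTGCAT or ATGCAAAT, was in 0 of 10 and in 1.74% of all. No motif searched is contained in another, and a match or its lack describes only the letters of these windows.

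The SoxB1 factor and the zinc finger factor of the neural plate did not pass the test in any transfected comparison. Sox3 had signals of 206, 210.2 and 213 in Foxd3-labelled arrays, 194, 100.4 and 156 in CA-NFATc3 arrays and 240.1, 169 and 204 in combined-label arrays, against 227, 134 and 154 in vector arrays, and the Foxd3-labelled arrays fell inside the range of the vector arrays. The log2 difference of Foxd3-labelled from vector arrays was 0.27 ± 0.20 (SE; limma adjusted p = 0.665). Zic2 lay at 183 to 276 in Foxd3-labelled, 169 to 201 in CA-NFATc3 and 228 to 246 in combined-label arrays, against 173 to 261 in vector arrays. Every group overlapped the vector arrays, with a log2 difference of 0.05 ± 0.16 between Foxd3-labelled and vector arrays (limma adjusted p = 0.944).

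Of the neural progenitor markers, Msi1 separated the groups without reaching the threshold against vector. Its signals were 482, 495 and 492 in Foxd3-labelled arrays, 255, 274 and 213 in CA-NFATc3 arrays and 467, 554 and 425 in combined-label arrays, against 309.9, 391 and 301 in vector arrays. Foxd3-labelled and combined-label arrays lay above the vector arrays, and CA-NFATc3 arrays lay below them, with no overlap in any of these comparisons. The log2 difference from vector was 0.52 ± 0.13 in Foxd3-labelled arrays (SE; limma adjusted p = 0.0564), 0.49 ± 0.13 in combined-label arrays (limma adjusted p = 0.0548) and -0.39 ± 0.13 in CA-NFATc3 arrays (limma adjusted p = 0.147). Vector replicate 2 decided the first 2 of these: without it the limma adjusted p was 0.0377 in Foxd3-labelled and 0.0317 in combined-label arrays. Directly compared, Msi1 was higher in Foxd3-labelled than in CA-NFATc3 arrays by 0.91 ± 0.13 (limma adjusted p = 0.000333).

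Nes read 146, 160.2 and 134 in Foxd3-labelled arrays, 112, 93.3 and 108 in CA-NFATc3 arrays and 119, 122 and 156 in combined-label arrays, against 131, 77.1 and 109 in vector arrays. The Foxd3-labelled arrays lay just above the vector arrays, and the log2 difference of 0.39 ± 0.17 was not called (SE; limma adjusted p = 0.368). A further tested Nes probe set, 1449022_at, ranged from 29.2 to 190.3 within the Foxd3-labelled arrays and was not called in any transfected comparison.

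Gbx2 was the one gene of the 10 with lower signals in the groups labelled Foxd3 and a call in that direction. Its signals were 513, 461 and 462 in Foxd3-labelled arrays, 826, 602 and 645 in CA-NFATc3 arrays and 592, 259.9 and 315 in combined-label arrays, against 727, 509.8 and 604 in vector arrays. Combined-label replicate 1 overlapped the vector arrays and the other two did not. The log2 difference was -0.32 ± 0.21 for Foxd3-labelled against vector arrays (SE; limma adjusted p = 0.616) and -0.68 ± 0.21 for combined-label against vector arrays (limma adjusted p = 0.118, and 0.00349 without combined-label replicate 1). Against CA-NFATc3 arrays the combined-label arrays were lower, at a log2 difference of -0.85 ± 0.21 (limma adjusted p = 0.0358). That call was lost in 4 of the 6 fits without 1 array, without CA-NFATc3 replicate 1 or 3 and without combined-label replicate 2 or 3, at adjusted p-values up to 0.169.

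The direct comparisons place the Foxd3 label beside CA-NFATc3. Between combined-label and CA-NFATc3 arrays 5 of the 10 genes rose (Sall2, Sox11, Msi1, Sox4 and Otx2) and 1 fell (Gbx2), where 5.34% of all genes were called, 2.11% higher and 3.23% lower. The log2 differences were 1.00 ± 0.19 for Sall2, 0.90 ± 0.09 for Sox11, 0.88 ± 0.13 for Msi1 and 0.86 ± 0.07 for Sox4, with limma adjusted p-values from 4.03e-06 to 0.00503. Otx2 differed by 0.60 ± 0.16 (limma adjusted p = 0.0426), and only the fit without CA-NFATc3 replicate 1 kept that call among the 6 fits that left out 1 array, the others reaching adjusted p-values up to 0.226. Between Foxd3-labelled and CA-NFATc3 arrays the 5 genes that rose were Sox11, Sall2, Msi1, Otx2 and Sox4, at 0.72 to 1.09, where 8.22% of all genes were called and 2.58% were called higher. These comparisons share the CA-NFATc3 arrays, and those with vector share the vector arrays. Between combined-label and Foxd3-labelled arrays 0 of the 10 genes were called (1 at an unadjusted p under 0.05 in limma), where 0.301% of all genes were called, and the test of additivity called 0 (1 at an unadjusted p under 0.05), where 0.663% were called.

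**Figure D3:**
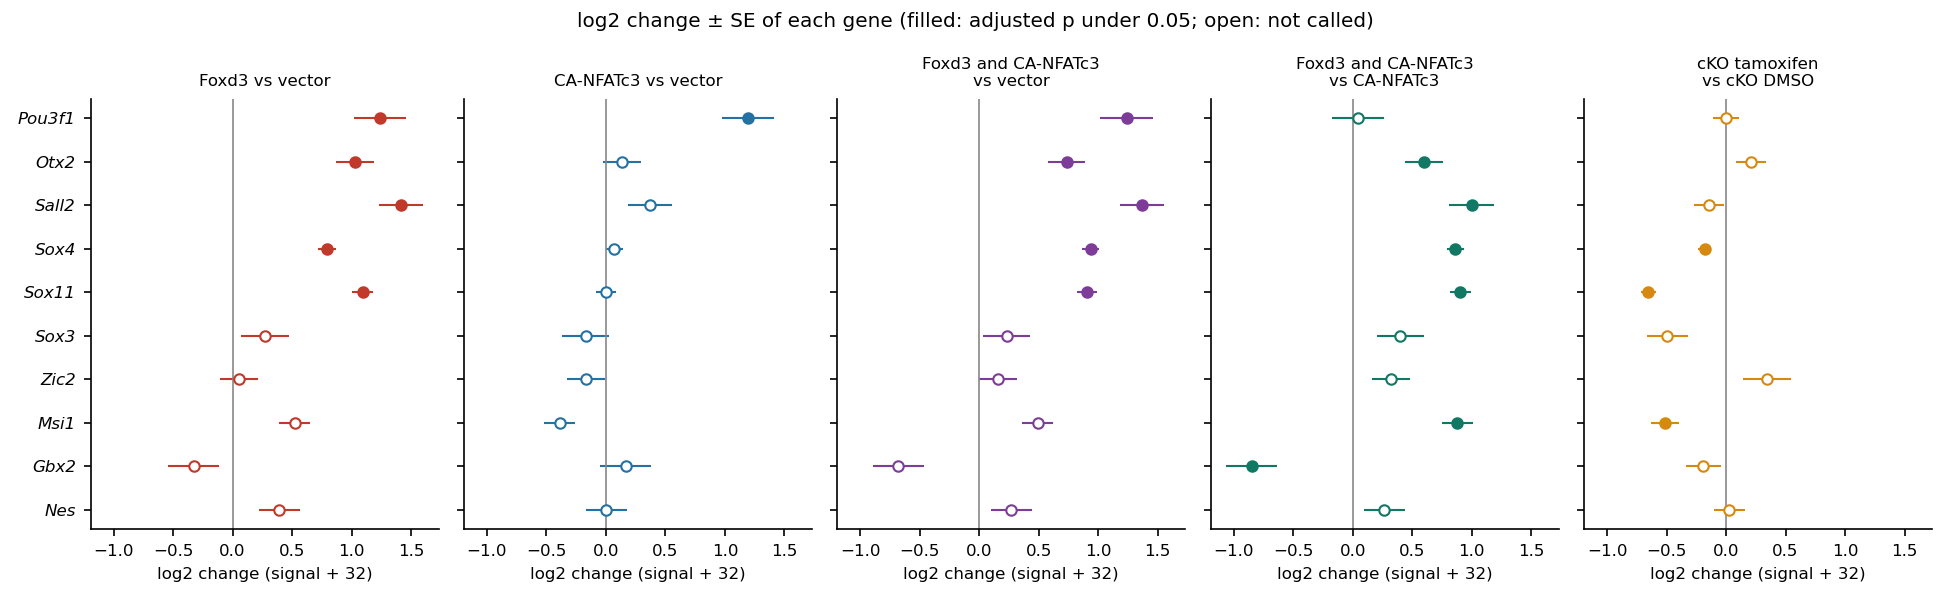
log2 change ± SE (x axis, on the log2(signal + 32) scale) of the brightest probe set of each of the 10 genes (rows) in 5 comparisons (panels); filled points have a limma adjusted p under 0.05. Pou3f1 is at 1.19 to 1.24 in the 3 comparisons with vector, Sall2, Sox4, Sox11 and Otx2 are filled in 3 of the 4 transfected panels and open for CA-NFATc3 against vector, and Sox11, Msi1 and Sox4 are filled below 0 after tamoxifen.

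Across the 10 genes the median log2 difference from vector was 0.66 in Foxd3-labelled arrays, 0.04 in CA-NFATc3 arrays and 0.61 in combined-label arrays, against medians of -0.01, -0.00 and 0.00 over all genes tested. As the 10 genes were chosen with earlier results of these data known, these medians only describe them. Markers of other cell types were read beside these results as summed signals. Fibroblast markers were at 404 to 473 in Foxd3-labelled, 547 to 719.6 in CA-NFATc3 and 834 to 919.8 in combined-label arrays, against 329 to 394 in vector arrays, with Col1a1, Postn, Lum and Dcn under 65.8 in all 12. Of 4 tested fibroblast genes, Col1a2 and Col3a1 were called higher in combined-label arrays, Col3a1 in CA-NFATc3 arrays and none in Foxd3-labelled arrays. Primitive endoderm markers were at 1272 to 1497 in Foxd3-labelled, 3522 to 4968 in CA-NFATc3 and 1637 to 1725 in combined-label arrays, against 1024 to 1428 in vector arrays. Trophectoderm markers were at 2833 to 3359.5 in Foxd3-labelled, 4859.6 to 5189 in CA-NFATc3 and 3272 to 3441 in combined-label arrays, against 3305 to 3952 in vector arrays. Endoderm and trophectoderm markers were thus highest in CA-NFATc3 arrays, where 3 of 6 tested genes of each list rose, against 1 and 0 of 6 in Foxd3-labelled arrays. Over all genes tested, 4.04% were called higher in CA-NFATc3 arrays, 1.51% in Foxd3-labelled arrays and 2.94% in combined-label arrays. Neural crest markers were at 343 to 544 in Foxd3-labelled, 605 to 631 in CA-NFATc3 and 474 to 514 in combined-label arrays, against 293 to 334 in vector arrays, with Sox10, Sox9, Tfap2a and Pax3 under 65.8 in all 12. Of 3 tested neural crest genes, Ets1 was called higher in Foxd3-labelled and combined-label arrays and Twist1 in CA-NFATc3 arrays. Neuron markers were at 5523 to 6001 in Foxd3-labelled, 4740.4 to 5049 in CA-NFATc3 and 5379 to 5959 in combined-label arrays, against 5174 to 5289 in vector arrays, and 0 of 5 tested genes were called against vector in limma in any group (1 to 3 at an unadjusted p under 0.05). Their part in the result was not tested.

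In the knockout cells Sox11 fell after tamoxifen. It had signals of 1464, 1552 and 1524 in tamoxifen arrays, against 2397, 2288 and 2516 in DMSO arrays, with no overlap. The log2 difference was -0.65 ± 0.06 (SE; limma adjusted p = 1.78e-05), and 5 of the 6 Sox11 probe sets were called lower, at -1.21 to -0.65, where 13.9% of all probe sets tested were called lower. The dim probe set 1431225_at read 124, 80.6 and 125 in tamoxifen arrays, against 117, 158 and 167 in DMSO arrays, and was not called (limma adjusted p = 0.196).

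Msi1 read 201, 230.1 and 232 in tamoxifen arrays, against 309, 317 and 363 in DMSO arrays, a log2 difference of -0.51 ± 0.12 (SE; limma adjusted p = 0.00679). Sox4 read 5963, 6081 and 5664 in tamoxifen arrays, against 6566, 6451 and 7072 in DMSO arrays. These groups did not overlap, and the log2 difference was small at -0.18 ± 0.05 (limma adjusted p = 0.0256). The Sox4 call was lost without DMSO replicate 3 (limma adjusted p = 0.0876), tamoxifen replicate 1 (0.064) or tamoxifen replicate 3 (0.0959), and its other 4 tested probe sets were not called. Sox3 read 99.3, 102 and 91.1 in tamoxifen arrays, against 124, 194 and 139 in DMSO arrays, without overlap; its log2 difference of -0.49 ± 0.17 missed the threshold (limma adjusted p = 0.0519) and passed it without DMSO replicate 1 (0.0282).

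Pou3f1, Otx2 and Sall2, which rose in Foxd3-labelled arrays, did not pass the test after tamoxifen. Pou3f1 read 1889, 1657 and 1608 in tamoxifen arrays, against 2091, 1516 and 1579.9 in DMSO arrays, a log2 difference of 0.00 ± 0.11 (SE; limma adjusted p = 0.992). Otx2 read 902, 806 and 993 in tamoxifen arrays, against 909, 813 and 623 in DMSO arrays (0.21 ± 0.13, limma adjusted p = 0.254). Sall2 read 241, 243 and 213 in tamoxifen arrays, against 282, 281 and 222 in DMSO arrays (-0.14 ± 0.13, limma adjusted p = 0.445). All 3 overlapped between the groups. Gbx2 averaged 637 ± 15.1 in tamoxifen arrays and 749 ± 206 in DMSO arrays (SD, n = 3 each; limma adjusted p = 0.373). Zic2 averaged 95.5 ± 16.4 in tamoxifen arrays and 69.3 ± 21.2 in DMSO arrays (limma adjusted p = 0.237). The Nes probe sets disagreed. The brightest read 276, 312 and 296 in tamoxifen arrays, against 255, 268 and 347 in DMSO arrays, and was not called (limma adjusted p = 0.901). The other tested one, 1449022_at, read 209, 263 and 263 in tamoxifen arrays, against 342, 373 and 463 in DMSO arrays, and was called lower at -0.61 ± 0.14 (limma adjusted p = 0.00548).

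Fibroblast markers moved with tamoxifen: their summed signal was 15839.7 to 18043 in tamoxifen arrays, against 2553 to 3152 in DMSO arrays, and 8 of 8 were called higher, Lum being under 65.8 in DMSO arrays. Neural crest markers summed to 2102 to 2494 in tamoxifen arrays, against 1101 to 1286 in DMSO arrays, with 2 of 4 tested genes higher, and neuron markers to 4597 to 4712, against 6619 to 7164 in DMSO arrays, with 2 of 5 lower. Primitive endoderm markers summed to 2713 to 2875 in tamoxifen arrays, against 1726 to 2182 in DMSO arrays, with 3 of 7 higher. Embryonic stem cell markers summed to 78573 to 83096 in tamoxifen arrays, against 89258 to 91083 in DMSO arrays, with 3 of 8 lower. Beside these counts, 16.7% of all 12093 genes tested were called higher and 16% lower. Actin control probe sets at the 3′ end read higher than those at the 5′ end, and this ratio, a measure of RNA integrity, was 1.89 ± 0.00311 in tamoxifen arrays and 2.15 ± 0.0884 in DMSO arrays (SD, n = 3 each). The same ratio of the Gapdh control probe sets was 1.015 ± 0.0144 in tamoxifen arrays and 1.013 ± 0.0309 in DMSO arrays. The part of these in the fall of Sox11, Msi1 and Sox4 was not tested.

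Sox11 and Sox4 were higher in Foxd3-labelled than in vector arrays and lower in tamoxifen than in DMSO arrays, in comparisons that share no array, while the Foxd3 probe set was lower in both. Pou3f1, Otx2 and Sall2, also higher in Foxd3-labelled arrays, were not called after tamoxifen. The Sox4 fall after tamoxifen lost its call in 6 of the alternative fits. Of all 12093 genes tested after tamoxifen, 16% were called lower. The median log2 difference of the 10 genes after tamoxifen was -0.16, against -0.01 over all genes tested.

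Levels also differed between the 2 kinds of cells, which were set side by side without a test because line and treatment cannot be told apart. Of the 10 genes, 6 were higher in DMSO knockout arrays than in vector arrays with no overlap, 1 was lower and 3 overlapped, where 37% of 11621 genes were higher and 26% lower without overlap. The DMSO mean was 12.98 times the vector mean for Pou3f1, 3.30 times for Sox11, 3.06 times for Otx2, 2.92 times for Sall2, 2.75 times for Nes and 2.02 times for Sox4. Zic2 was the gene that was lower, its mean in vector arrays being 3.06 times that in DMSO arrays. Gbx2, Sox3 and Msi1 overlapped. The median ratio of DMSO to vector means was 2.38 over the 10 genes and 1.07 over all genes. Pou3f1 therefore had its lowest group mean in vector arrays (133 ± 49.4), 3 overlapping transfected groups above it, and its highest means in the knockout arrays, 1718 ± 150.2 after tamoxifen and 1729 ± 315 with DMSO, which overlapped (SD, n = 3 each). On the brightest Sox11 probe set, group means rose from vector and CA-NFATc3 arrays, which overlapped, to combined-label, tamoxifen, Foxd3-labelled and DMSO arrays. From combined-label arrays upward neighbours did not overlap, the highest combined-label array reading 1460.2 and the lowest tamoxifen array 1464. On every other Sox11 probe set the tamoxifen mean was above the Foxd3-labelled mean, as on 1453125_at at 921 and 768.

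Other genes of these states were read from 3 lists. Of all genes tested, 2.26% were called in Foxd3-labelled, 4.99% in CA-NFATc3 and 3.92% in combined-label against vector arrays. After tamoxifen 32.7% were called, 16.7% higher and 16% lower. Of 12 tested genes of the formative and primed epiblast, 3 were higher in Foxd3-labelled than in vector arrays, 0 lower and 9 not called, with a median log2 difference of 0.08. They were the de novo DNA methyltransferases Dnmt3b (1.20 ± 0.16, limma adjusted p = 0.000783) and Dnmt3a (0.87 ± 0.20, limma adjusted p = 0.0337) and the secreted Wnt modulator Sfrp2 (0.76 ± 0.09, limma adjusted p = 0.000227). The same 3 were the genes called in combined-label arrays. In CA-NFATc3 arrays 2 were higher, the chromatin protein gene Hmga2 (0.74) and Dnmt3b (0.68), and the zinc finger gene Zic5 was lower (-0.67). After tamoxifen 8 of 13 tested genes were lower, among them Dnmt3a at -0.78 ± 0.11 (limma adjusted p = 0.000353), and 2 were higher, Hmga2 at 1.14 ± 0.09 (limma adjusted p = 2.1e-06) and Fgf5, a growth factor gene of the primed epiblast that averaged 112 in tamoxifen arrays and, under 65.8, 47.8 in DMSO arrays. The list's median after tamoxifen was -0.40.

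Of 11 tested early neural genes other than the 10, 0 were called in Foxd3-labelled against vector arrays in limma (5 higher and 1 lower at an unadjusted p under 0.05), with a median log2 difference of 0.28. In CA-NFATc3 arrays 1 was higher, Sox21 (0.62), and in combined-label arrays 1, Vim (0.35). Against CA-NFATc3 arrays, Foxd3-labelled arrays had 4 higher and 1 lower, led by the neural factors Sox1 (1.21 ± 0.18, limma adjusted p = 0.000607) and Pax6 (0.90 ± 0.20, limma adjusted p = 0.0116), with Sox21 lower (-1.05). In that comparison 8.22% of all genes tested were called and 2.58% were called higher. After tamoxifen 5 of 12 were higher and 2 lower: the cell adhesion gene Ncam1 rose by 1.15 and the intermediate filament gene Vim by 1.09 on the log2 scale, beside the fibroblast markers described above. Zic1 was also called higher, at a mean of 151 in tamoxifen arrays and of 57.7, under 65.8, in DMSO arrays. Of 13 naive pluripotency genes, 0 were higher and 5 lower in Foxd3-labelled arrays (0 and 11 at an unadjusted p under 0.05), with a median of -0.30, led by Tbx3 (-0.75 ± 0.08, limma adjusted p = 6.19e-05), Fbxo15 (-0.59) and Tfcp2l1 (-0.47). Over all genes tested, 1.51% were called higher and 0.749% lower in Foxd3-labelled against vector arrays. In CA-NFATc3 arrays 3 of the naive genes were lower (Prdm14, Nr0b1 and Klf2) and in combined-label arrays 7, where 4.99% and 3.92% of all genes were called. After tamoxifen 4 were higher and 2 lower, with Tbx3 at 0.79 ± 0.10 (limma adjusted p = 0.000143), Fbxo15 at 0.46 and Tcl1 at -0.39. The neural and naive counts after tamoxifen stand beside 16.7% of all genes tested called higher and 16% lower.

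**Figure D4:**
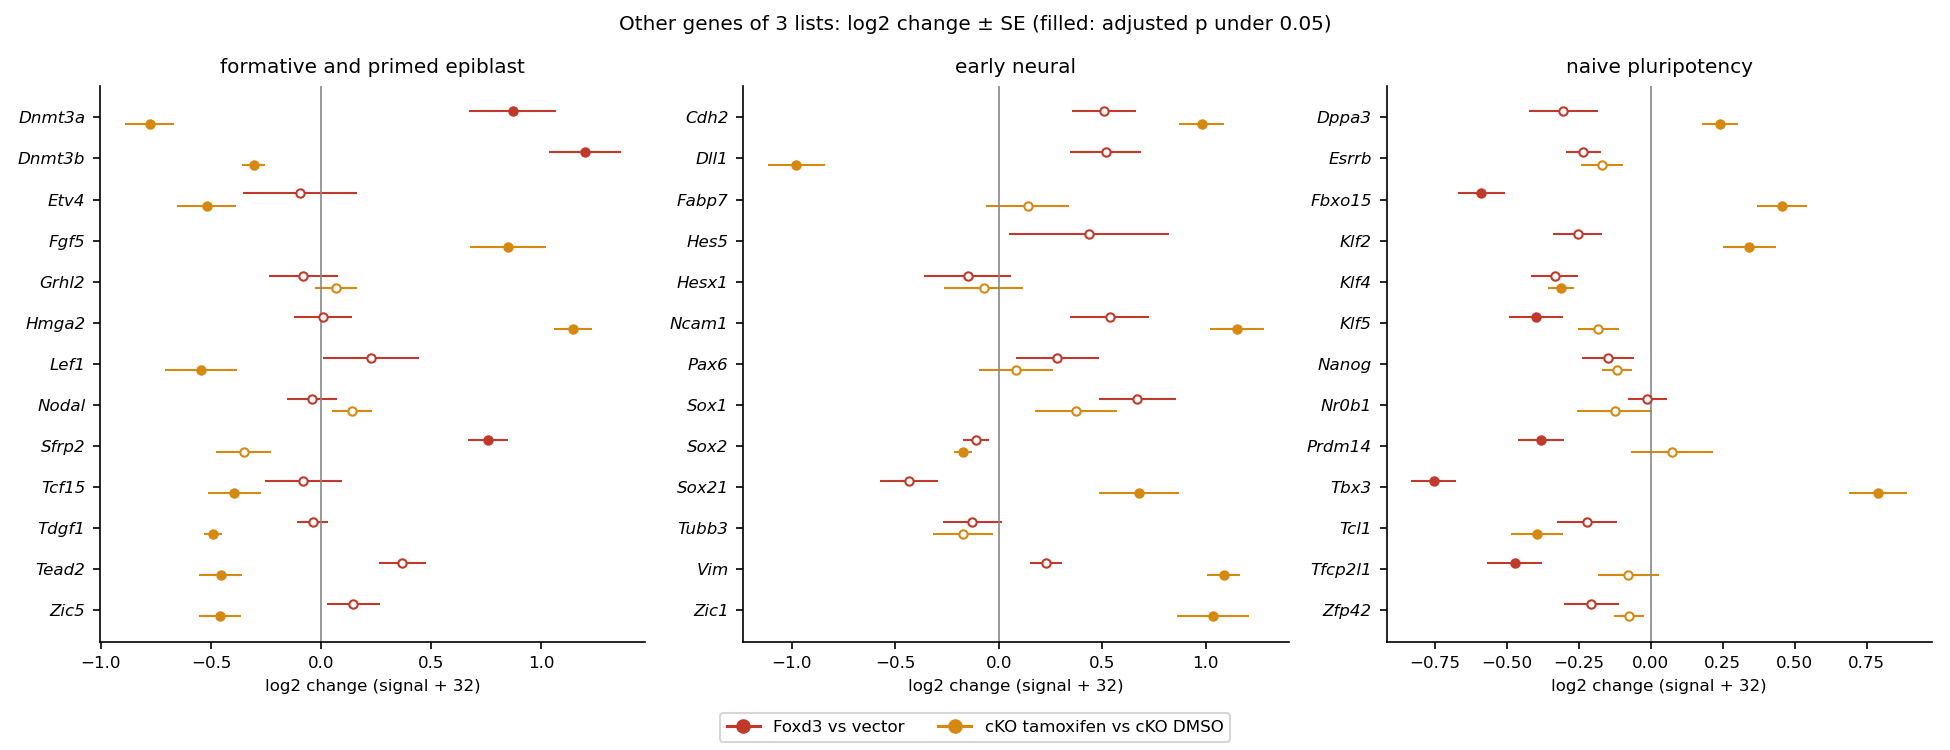
log2 change ± SE (x axes, on the log2(signal + 32) scale) of the other tested genes of 3 lists (rows; a panel per list) in Foxd3-labelled against vector arrays and in tamoxifen against DMSO arrays; filled points have a limma adjusted p under 0.05. Dnmt3a and Dnmt3b are filled above 0 in the first comparison and below 0 in the second, and Tbx3 and Fbxo15 the other way round.

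The genes whose pattern over the 12 transfected arrays was most like that of 3 members were named by Pearson correlation of log2(signal + 32) among 11609 genes. These are descriptions over arrays of 4 groups, so a shared group difference gives a high value. Pou3f1 was highest in replicate 1 in all 4 groups, and the part of the replicate number in these correlations was not tested. For Sox11 they were Pkdcc (0.981), Hs6st2 (0.980) and Armcx4 (0.973). For Sall2 they were Pwwp3b (0.963), Cachd1 (0.960) and Hs6st2 (0.958). Hs6st2, which encodes a heparan sulfate 6-O-sulfotransferase, averaged 928 ± 168 in Foxd3-labelled, 100.02 ± 20.1 in CA-NFATc3 and 861 ± 49.6 in combined-label arrays, against 59.6 ± 9.62 in vector arrays (SD, n = 3 each). For Pou3f1 they were Zswim4 (0.947), Chst1 (0.884) and Mycn (0.884), and Mycn averaged 7291 ± 611 in Foxd3-labelled, 6698 ± 534 in CA-NFATc3 and 7045 ± 433 in combined-label arrays, against 5773 ± 656 in vector arrays. Within the 10 genes, Sox11 correlated with Sox4 at 0.953 and with Sall2 at 0.940, and Pou3f1 with Sox11 at 0.558.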

How the data were processed

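Affymetrix arrays of 18 samples were compared, 3 in each of 6 groups taken from the labels. The values are deposited MAS5 signals, a linear intensity per probe set, per the submitters' processing notes, which name no version. Trimmed of 2% at each end, the mean signal of an array averaged 500.0 over the 18 arrays. Background handling and detection calls behind the signals are not stated there.

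Probe sets were named from the platform annotation, and Entrez numbers of all 10 genes matched GRCm38.p6. Signals were put on the log2(signal + 32) scale, on which fold changes of dim probe sets are understated. Probe sets reaching 65.8 in at least 3 arrays of a fit were tested with limma 3.58.1 (R 4.3.3; eBayes with an intensity trend), separately for 12 transfected and 6 knockout arrays, two-sided, with Benjamini-Hochberg adjustment over all probe sets tested. The gene's brightest probe set over 18 arrays was its main reading. Tables and figures used Python 3.11.15, pandas 2.3.3 and matplotlib 3.10.9.

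All 10 genes were named, the up to 3 called genes of each list with the largest change, and the 3 genes most correlated with Pou3f1, Sall2 and Sox11. Further genes named from the lists were chosen after their values were seen. The members and lists were chosen with earlier results of these data known. Alternatives were other offsets, no filter, quantile normalization, a replicate block, 1 probe set per gene, 1 fit of all arrays, and leaving out each array.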

Additional observations from a re-analysis of the deposited data

How the results depend on the processing

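Of 2039 results for probe sets of the 10 genes under alternatives, 1967 kept their direction and side of the threshold, 47 lost the call, 25 gained one and 0 reversed, direction being read for called values only. Results called neither in the main fit nor in the alternative count among the 1967, whatever their sign. The count of the 10 genes called ranged over fits without 1 array from 5 to 6 for Foxd3-labelled, 1 to 1 for CA-NFATc3 and 4 to 6 for combined-label against vector arrays, 4 to 5 for combined-label and 5 to 5 for Foxd3-labelled against CA-NFATc3 arrays, 0 to 0 for combined-label against Foxd3-labelled arrays and for additivity, and 2 to 4 for tamoxifen against DMSO. Msi1 was called higher in Foxd3-labelled arrays with 1 probe set per gene (limma adjusted p = 0.0398) and with all 18 arrays in 1 fit (0.0254), and in combined-label arrays likewise (0.0387 and 0.0261). Sox4 after tamoxifen was not called without the filter (0.0508), with quantile normalization (0.0682) or in 1 fit of all arrays (0.0586). Sox3 after tamoxifen was called with quantile normalization (0.0305) and with 1 probe set per gene (0.0455), and the lower Nes probe set lost its call in 1 fit of all arrays (0.307). Against CA-NFATc3 arrays, the combined-label calls of Otx2 (0.0708) and Gbx2 (0.0562) were lost without the filter, and that of Otx2 with quantile normalization (0.0544). The cause was not tested.

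Same-numbered transfected arrays of different groups deviated together, at correlations of 0.0716 to 0.263 in 18 pairs, against -0.245 to 0.0345 in 36 pairs of unlike number, and all 12 arrays correlated best with their own number, a hint from the data and not from the design. In the knockout cells the 3 pairs gave -0.0260 to 0.0272. The numbers were not taken as pairing. With the replicate number as a block, 2 of the 10 genes were called in CA-NFATc3 against vector arrays instead of 1 (Msi1 lower, limma adjusted p = 0.0334), 6 in Foxd3-labelled against vector arrays instead of 5 (Msi1 higher, 0.00856), 7 in combined-label against vector arrays instead of 5 (Msi1 higher, 0.00895, and Gbx2 lower, 0.00939), 6 in Foxd3-labelled against CA-NFATc3 arrays instead of 5 (Gbx2 lower, 0.0395) and 1 for additivity instead of 0 (Pou3f1, adjusted p = 0.00397). The second Sox4 probe set, 1419156_at, was then also called higher in combined-label (0.0426) and Foxd3-labelled (0.0439) against CA-NFATc3 arrays. With the block 966, 1397, 1450, 1619, 119, 2283 and 228 probe sets were called over all genes in the order given next.

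Over all probe sets the counts called were 403 for Foxd3-labelled, 842 for CA-NFATc3 and 669 for combined-label against vector arrays, 926 for combined-label against CA-NFATc3, 53 for combined-label against Foxd3-labelled and 1437 for Foxd3-labelled against CA-NFATc3 arrays, and 100 for additivity. Without 1 array they ranged, in that order, over 195 to 345, 436 to 764, 363 to 514, 461 to 721, 23 to 38, 814 to 1254 and 52 to 97. With no offset 34 were called for combined-label against Foxd3-labelled arrays and 65 for additivity. All 18 arrays in 1 fit gave 629 and 1031 for Foxd3-labelled and combined-label against vector arrays and 178 for additivity. For tamoxifen against DMSO 6932 were called, and 4165 with 1 probe set per gene, a fit of fewer probe sets. Signals under 65.8 limit what can be said of the dim probe sets.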

Other observations

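Over the 4 transfected groups, replicate 1 was the highest array of its group for Pou3f1 and Gbx2 in all 4, as for 547 of 11609 genes (4.71%). Replicate 2 was the highest for Msi1 in all 4, as for 673 genes (5.80%), and the lowest for Gbx2 in all 4, as for 735 genes (6.33%).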
